A study of Mus musculus with 12 samples.

Results

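Podocytes are the epithelial cells that wrap the capillaries of the glomerulus, and 8 genes of their slit diaphragm and identity were described here in whole kidney, out of 19938 genes measured. The 8 genes were Nphs1, Kirrel, Cd2ap, Podxl, Ptpro, Synpo, Wt1 and Lmx1b. They were chosen by name, as probe sets with that single gene symbol on an Affymetrix mouse array, and the brightest by its mean over the 12 arrays was taken where several carried the same symbol. All 8 of 8 were found, and Nphs1 was the one gene among them with another probe set.

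The kidneys came from 3-week-old mice in 4 groups of 3 arrays, and each array held RNA pooled from 3 mice, 36 mice in all. PpargΔ/Δ mice lack the nuclear receptor PPARγ, which drives fat cell formation, and were on a mixed C57BL6/SV129 background, as were the mice labelled control. AZIP mice and FVB control mice were on the FVB background; AZIP is known as a transgene for a dominant-negative leucine zipper protein whose carriers have little or no white fat. All mice were killed with CO2. The labels name neither the Cre line behind the Pparg deletion, nor the promoter of the AZIP transgene, nor the alleles of the controls, nor sex. Each mutant was compared with the controls of its own background. The spread between arrays is that between pools, not between single mice. In bulk kidney fewer podocytes and less RNA per podocyte cannot be told apart.

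Each podocyte sends out foot processes that interlock with those of its neighbours, and the slit between them is bridged by the slit diaphragm, a cell junction that holds back protein from the urine. Nephrin, from Nphs1, and NEPH1, from Kirrel, are immunoglobulin proteins that span the slit, and CD2AP ties nephrin to the actin skeleton. Podocalyxin (Podxl) gives the foot processes their negative surface charge, Ptpro encodes the receptor tyrosine phosphatase GLEPP1 of the foot process membrane, and synaptopodin (Synpo) bundles actin within. WT1 and LMX1B are transcription factors that podocytes need to form and to stay mature, and loss of function in these genes causes proteinuric kidney disease. Some members are not restricted to podocytes: for example, Cd2ap is widely expressed, and Wt1 is also on in nephron progenitors. Whether the signal of any member came from podocytes alone was not tested.

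Promoter sequence was read for 5 of the 8 members, Nphs1, Kirrel, Ptpro, Cd2ap and Lmx1b, from RefSeq on GRCm38.p6. The 3 shown are those of Kirrel, which rose in both mutants, of its slit partner Nphs1, which did not pass the test there, and of Ptpro, which lay below control in both. Each runs 5′ to 3′ on the gene's own strand over 250 bases before and 50 after the start, and capitals mark the longest run of purines (A or G).
Kirrel, chr3:87174488-87174787, minus strand: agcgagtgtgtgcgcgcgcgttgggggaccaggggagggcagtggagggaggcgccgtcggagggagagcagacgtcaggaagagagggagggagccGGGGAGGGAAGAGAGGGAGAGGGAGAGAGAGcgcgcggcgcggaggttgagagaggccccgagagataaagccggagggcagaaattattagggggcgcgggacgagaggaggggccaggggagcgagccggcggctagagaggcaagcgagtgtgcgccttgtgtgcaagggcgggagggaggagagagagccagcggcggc
Nphs1, chr7:30459808-30460107, plus strand: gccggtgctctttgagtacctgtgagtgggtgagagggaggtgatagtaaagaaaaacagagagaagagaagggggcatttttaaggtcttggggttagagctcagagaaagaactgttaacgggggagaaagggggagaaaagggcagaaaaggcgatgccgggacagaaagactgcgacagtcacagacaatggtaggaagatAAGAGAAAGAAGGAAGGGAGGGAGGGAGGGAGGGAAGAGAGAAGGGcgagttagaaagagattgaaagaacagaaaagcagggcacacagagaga
Ptpro, chr6:137252049-137252348, plus strand: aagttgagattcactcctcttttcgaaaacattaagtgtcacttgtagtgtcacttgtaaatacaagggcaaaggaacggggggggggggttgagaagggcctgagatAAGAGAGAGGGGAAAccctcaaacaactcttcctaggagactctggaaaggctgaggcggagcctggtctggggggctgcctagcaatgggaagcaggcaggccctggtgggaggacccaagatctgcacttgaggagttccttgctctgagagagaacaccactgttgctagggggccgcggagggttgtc
Purines made up 75.7% of the Kirrel window and 77.7% of the Nphs1 window, and among 32851 mouse promoter windows of the same length 17 and 10 held more. The longest purine runs were 31 bases in Kirrel and 46 in Nphs1, against 15 in Ptpro, whose window was 60% purine. Windows of Lmx1b and Cd2ap held 58.3% and 47% purines. The Kirrel window was richer in G and C than that of Nphs1, at 69.3% against 49.7%. This feature was picked after the sequences were seen.

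Motifs of factors tied to podocytes or to PPARγ were searched in the 5 windows on both strands. The core GCGGGGGCG, bound by WT1 and EGR proteins, was in none of the 5 and in 2.91% of all windows. The homeodomain core TAATTA, searched for LMX1B, was in none and in 5.29% of all. The direct repeat bound by PPAR and RXR, in its consensus form, was in none and in 0.0396% of all. E-boxes, CANNTG, were found 3 times in Ptpro, 2 times in Cd2ap and 1 time in Lmx1b, and not in Kirrel or Nphs1, while 72.3% of all windows held at least 1.

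Kirrel and Wt1 were higher in both mutants than in their controls, and the other 6 members did not pass the test in either line. Values below are the deposited log2 signals, differences are mutant minus control in log2, given as estimate ± SE of the limma fit (n = 3 in each group), and the threshold was a Benjamini-Hochberg adjusted p under 0.05 over all 19938 genes. In PpargΔ/Δ kidneys 2 of 8 members rose and 0 fell, with 5 at an unadjusted p under 0.05, where 5.29% of all genes tested were called, 2.67% higher and 2.62% lower. In AZIP kidneys 2 of 8 rose and 0 fell, with 3 higher and 1 lower at an unadjusted p under 0.05, where 2.43% of all genes were called, 1.3% higher and 1.13% lower. Over all genes 0.717% were called higher in both lines. Arrays of the 2 groups did not overlap for 4 of 8 members in PpargΔ/Δ, all 4 higher (26.1% of all genes, 12.9% higher), and for 5 of 8 in AZIP, 4 higher and 1 lower (22.5% of all genes, 11% higher and 11.5% lower). The 2 comparisons share no array, although the spread was estimated over all 12. The members' median difference was 0.14 in PpargΔ/Δ and 0.07 in AZIP, against -0.01 and 0 over all genes.

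**Figure D1:**
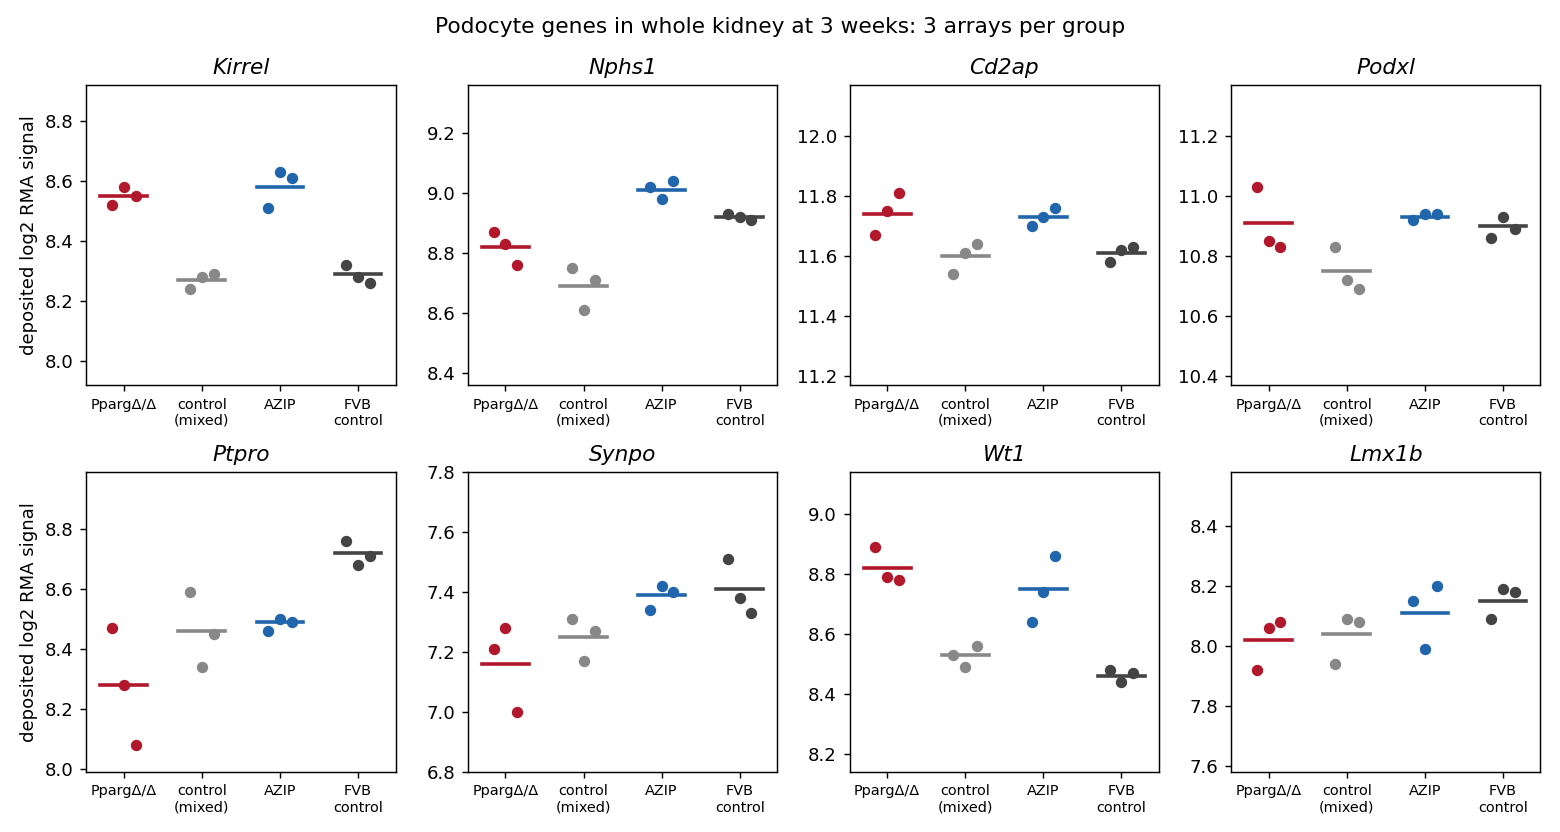
Deposited log2 RMA signal of each of the 8 genes on the 12 arrays, by group; points are arrays, lines are group means, and every panel spans 1 log2 unit. All 3 arrays of either mutant lie above all 3 of their controls for Kirrel, Wt1, Nphs1 and Cd2ap, and all 3 AZIP arrays lie below the FVB control arrays for Ptpro.

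The slit diaphragm proteins come first. Kirrel read 8.52, 8.58 and 8.55 in PpargΔ/Δ kidneys and 8.24, 8.28 and 8.29 in control kidneys. It read 8.51, 8.63 and 8.61 in AZIP and 8.32, 8.28 and 8.26 in FVB control. The lowest mutant array lay above the highest control array in both lines, and the 2 control groups overlapped. The difference was 0.28 ± 0.05 in PpargΔ/Δ (1.22-fold, limma adjusted p = 0.00579) and 0.3 ± 0.05 in AZIP (1.23-fold, limma adjusted p = 0.0104). The call in PpargΔ/Δ held under all 23 alternatives (limma adjusted p up to 0.0316), and that in AZIP was lost only when the other 2 groups were left out of the fit (limma adjusted p = 0.057). The order of group means was AZIP, PpargΔ/Δ, FVB control and control, with a gap between both mutants and both controls, and the 2 mutant groups overlapped.

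Nphs1 read 8.87, 8.83 and 8.76 in PpargΔ/Δ, 8.75, 8.61 and 8.71 in control, 9.02, 8.98 and 9.04 in AZIP, and 8.93, 8.92 and 8.91 in FVB control. Mutant arrays lay above their controls in each line, although the closest arrays were 8.76 and 8.75 in the first. The differences of 0.13 ± 0.05 in PpargΔ/Δ (limma adjusted p = 0.16) and 0.09 ± 0.05 in AZIP (limma adjusted p = 0.385) did not pass. Between the control groups, which differ in strain and may differ in alleles the labels do not name, Nphs1 was higher in FVB control by 0.23 ± 0.05 (limma adjusted p = 0.0149), in a comparison that called 1 of 8 members and 7.22% of all genes, 3.5% higher and 3.72% lower. It shares its arrays with both mutant comparisons. Between the control groups 5 of 8 members did not overlap, 4 higher and 1 lower in FVB control, as did 28.5% of all genes. The Nphs1 call was lost without control array 2 and without either of FVB control arrays 1 and 2 (limma adjusted p reaching 0.0639). All 4 groups stood in the order AZIP, FVB control, PpargΔ/Δ and control.

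The other Nphs1 probe set was dim, with a mean of 6.42 (above 37.8% of all probe sets, against 73.1% for the one used). It read 6.25, 6.35 and 6.5 in AZIP and 6.6, 6.53 and 6.56 in FVB control, below its controls by 0.2 (difference -0.2 ± 0.08, limma adjusted p = 0.335 over all probe sets). In PpargΔ/Δ it differed from control by 0 ± 0.08 (limma adjusted p = 0.991). The 2 probe sets of nephrin thus disagreed in sign in AZIP, and their mean gave -0.05.

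Cd2ap, the adaptor between nephrin and actin, read 11.67, 11.75 and 11.81 in PpargΔ/Δ and 11.54, 11.61 and 11.64 in control. In AZIP it read 11.7, 11.73 and 11.76 against 11.58, 11.62 and 11.63 in FVB control. Mutant and control arrays did not overlap in either line, and the 2 control groups did. Its differences of 0.14 ± 0.05 (limma adjusted p = 0.111) and 0.12 ± 0.05 (limma adjusted p = 0.243) did not pass, although 2 of 23 alternatives brought the first past the threshold (limma adjusted p from 0.0449).

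Proteins of the foot process surface and skeleton gave no call in either mutant. Podxl read 11.03, 10.85 and 10.83 in PpargΔ/Δ and 10.83, 10.72 and 10.69 in control, with one high array and overlapping groups. AZIP read 10.92, 10.94 and 10.94 and FVB control 10.86, 10.93 and 10.89. Its difference was 0.16 in PpargΔ/Δ (95% interval 0.03 to 0.29, limma adjusted p = 0.161) and 0.04 in AZIP (-0.09 to 0.17, limma adjusted p = 0.821). FVB control lay above control by 0.15, without overlap, which did not pass either (limma adjusted p = 0.189).

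Ptpro was the one member below control in both lines by more than 0.1. It read 8.47, 8.28 and 8.08 in PpargΔ/Δ, the widest spread of any member in a group, and 8.59, 8.34 and 8.45 in control. AZIP arrays read 8.46, 8.5 and 8.49, all below the 8.76, 8.68 and 8.71 of FVB control. The difference was -0.18 ± 0.09 in PpargΔ/Δ (limma adjusted p = 0.27) and -0.23 ± 0.09 in AZIP (limma adjusted p = 0.202), so neither passed. FVB control was above control by 0.26 ± 0.09 with no overlap (limma adjusted p = 0.111), and the AZIP level fell among those of the mixed controls.

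Synpo, the actin bundling protein, gave 7.21, 7.28 and 7.0 in PpargΔ/Δ against 7.31, 7.17 and 7.27 in control, and 7.34, 7.42 and 7.4 in AZIP against 7.51, 7.38 and 7.33 in FVB control. Groups overlapped in both lines. The intervals of its difference ran from -0.25 to 0.08 and from -0.18 to 0.14. Its signal was close to the array medians, which ran from 7.17 to 7.21 over all probe sets.

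Of the 2 transcription factors, Wt1 rose and Lmx1b stayed within the spread. Wt1 read 8.89, 8.79 and 8.78 in PpargΔ/Δ and 8.53, 8.49 and 8.56 in control. AZIP read 8.64, 8.74 and 8.86 and FVB control 8.48, 8.44 and 8.47. Every mutant array was above every control array of either background, and FVB control was the lowest group, below control by 0.07 (limma adjusted p = 0.604). The difference was 0.29 ± 0.06 in PpargΔ/Δ (1.22-fold, limma adjusted p = 0.0169) and 0.28 ± 0.06 in AZIP (1.22-fold, limma adjusted p = 0.0308).

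Wt1 was the less stable of the called members. In PpargΔ/Δ it lost the threshold without either of control arrays 1 and 2 (limma adjusted p reaching 0.0636), and 21 of 23 alternatives kept it. In AZIP 16 of 23 kept it, and it was lost without AZIP 2 or 3, without any 1 of the FVB control arrays, with all probe sets tested and with only these groups fitted (limma adjusted p up to 0.113). The size of the difference stayed between 0.23 and 0.34 in AZIP and between 0.26 and 0.31 in PpargΔ/Δ.

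Lmx1b read 7.92, 8.06 and 8.08 in PpargΔ/Δ and 7.94, 8.09 and 8.08 in control. It read 8.15, 7.99 and 8.2 in AZIP and 8.09, 8.19 and 8.18 in FVB control. Groups overlapped in every comparison, control strains included. The differences were -0.01 (95% interval -0.17 to 0.14) and -0.04 (-0.19 to 0.11).

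**Figure D2:**
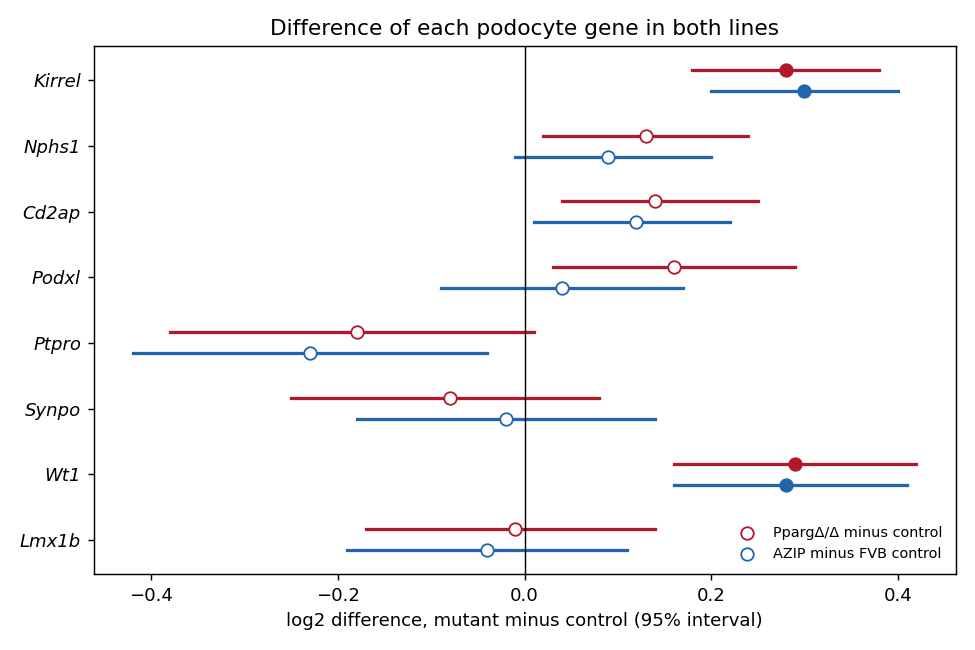
Difference of each gene in log2, mutant minus control, with its 95% interval from limma, for PpargΔ/Δ (red) and AZIP (blue); filled points had an adjusted p under 0.05. Kirrel and Wt1 are filled in both lines at 0.28 to 0.3, and Ptpro lies at -0.18 and -0.23 with open points.

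No member responded differently in the 2 lines by the test of that difference. Of the 8 genes 0 passed (limma, PpargΔ/Δ effect minus AZIP effect), 0 had an unadjusted p under 0.05, and 0.0201% of all genes were called. The difference of effects was -0.01 for Kirrel (95% interval -0.15 to 0.13) and 0.01 for Wt1 (-0.17 to 0.19). For Podxl it was 0.12 (-0.07 to 0.3). All 8 members had the same sign in both lines, as did 45 of the 55 genes of the podocyte lists below. The share over all genes was not counted. Signs of Lmx1b in both lines and of Synpo in AZIP changed when single arrays were left out.

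One more contrast, the average of both mutant effects in the same fit, was added after the values were seen. By it 3 members were higher and 1 lower, where 12.6% of all genes were called, 6.29% in each direction. Kirrel stood at 0.29 ± 0.03 (limma adjusted p = 3.79e-04) and Wt1 at 0.29 ± 0.04 (limma adjusted p = 0.00149). Cd2ap, at 0.13 ± 0.03 (limma adjusted p = 0.0275), and Ptpro, at -0.21 ± 0.06 (limma adjusted p = 0.0488), passed here alone. Nphs1 just missed at 0.11 ± 0.03 (limma adjusted p = 0.0566). The count was 2 in place of 4 without PpargΔ/Δ 2 or 3, control 1, AZIP 2 or 3, or FVB control 1 or 2; Kirrel and Wt1 passed under all 22 alternatives, Cd2ap under 13 and Ptpro under 11.

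Because all members are read on the same array, their signals were also set against that of Nphs1. Only the shift of such a log ratio between groups has a meaning, not its level, since probe sets differ in brightness per molecule. The Wt1 to Nphs1 log ratio was 0.03, -0.04 and 0.01 in PpargΔ/Δ and -0.22, -0.12 and -0.15 in control, and -0.37, -0.25 and -0.18 in AZIP against -0.45, -0.48 and -0.44 in FVB control. It was higher by 0.16 and 0.19 without overlap. The Ptpro to Nphs1 log ratio moved the other way, by -0.31 and -0.32, also without overlap: the mutant arrays read -0.4, -0.55 and -0.68, and -0.56, -0.48 and -0.55, the controls -0.16, -0.28 and -0.26, and -0.17, -0.24 and -0.2. Kirrel against Nphs1 was higher by 0.15 and 0.2, with 1 pair of overlapping arrays in PpargΔ/Δ (-0.34 against -0.33). These shifts restate the differences of the single genes, and in AZIP they depend on the Nphs1 probe set used, since the other one had a difference of -0.2. The pairs were picked after the values were seen, so no test is given. How often ratios of other gene pairs do not overlap was not counted.

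**Figure D3:**
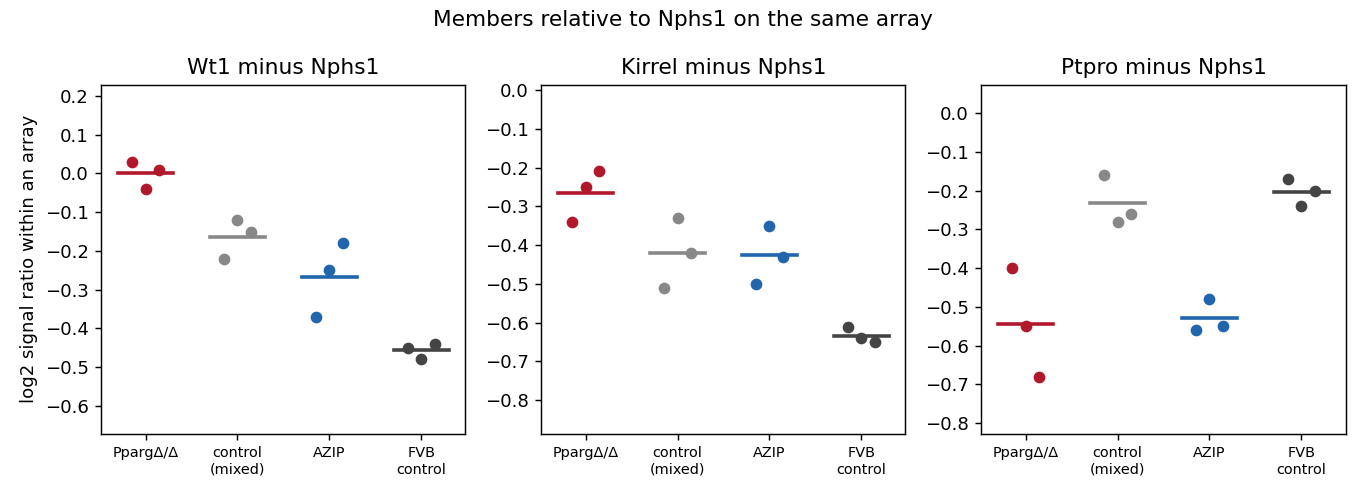
Log2 ratio of Wt1, Kirrel and Ptpro to Nphs1 on each array, by group; points are arrays, lines are means, and each panel spans 0.9 log2 units. Wt1 to Nphs1 is higher in both mutants by 0.16 and 0.19, and Ptpro to Nphs1 lower by 0.31 and 0.32.

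Few other podocyte genes passed the test in either line. The 5 lists, with 55 of 59 entries measured, held slit diaphragm partners, the actin skeleton, transcription and cell cycle exit, adhesion and basement membrane, and surface or secreted proteins. In PpargΔ/Δ 5 of 55 rose and 0 fell (9.09%, against 2.67% of all genes), and 41 of 55 differences were above 0 (9338 of 19938 over all genes), with a median of 0.09. At an unadjusted p under 0.05 it was 19 higher and 1 lower (34.5% and 1.82%, against 10.2% of all genes in each direction). The 5 were the giant cadherin Fat1 (0.31 ± 0.08), the YAP partner Tead1 (0.33 ± 0.06), the forkhead factor Foxc1 (0.23 ± 0.06), nephronectin, Npnt, a ligand of integrins in the basement membrane (0.27 ± 0.06), and the semaphorin Sema3g (0.22 ± 0.06). Fat1 read 10.27, 10.3 and 10.26 against 9.97, 9.94 and 9.98, and Tead1 10.63, 10.65 and 10.65 against 10.33, 10.25 and 10.36. By list that was 1 of 12 slit diaphragm partners, 0 of 12 actin genes (4 at an unadjusted p under 0.05 by limma), 2 of 9 transcription genes, 1 of 11 adhesion genes and 1 of 11 surface or secreted genes. The count of 5 was 0 without control 2, 1 without PpargΔ/Δ 2 or 3 or control 1, 2 without control 3 or FVB control 2, 3 without AZIP 1 or FVB control 1, and 8 without PpargΔ/Δ 1. Over all genes the higher calls then lay between 168 and 628, against 532.

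In AZIP kidneys podoplanin, Pdpn, a sialoglycoprotein of the podocyte surface, was the 1 of 55 that rose (1.82%, against 1.3% of all genes), and 0 fell. It read 8.95, 9.3 and 9.34 against 8.79, 8.74 and 8.73, a difference of 0.45 ± 0.1 (limma adjusted p = 0.0439), and was at 0.29 ± 0.1 in PpargΔ/Δ (limma adjusted p = 0.133). The median was 0.11, and 45 of 55 differences were above 0 (10183 of 19938 over all genes). At an unadjusted p under 0.05 by limma it was 19 higher and 0 lower (34.5% and 0%, against 8.09% and 8.3% of all genes). The other 54 did not pass, among them Thsd7a (0.27 ± 0.06, limma adjusted p = 0.0503), picked as a near miss. Pla2r1, also of the surface list, was at -0.03 ± 0.06 (limma adjusted p = 0.886). The count of 1 was 0 without PpargΔ/Δ 3, without any 1 of the control or FVB control arrays and without AZIP 2, 2 without PpargΔ/Δ 1, and 4 without AZIP 1. Over all genes the higher calls then lay between 43 and 328, against 260.

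Averaged over both lines, 22 of the 55 were higher and 0 lower (40%, against 6.29% of all genes in each direction). They were 3 slit diaphragm partners, 3 actin genes, 5 transcription genes, 6 adhesion genes and 5 surface or secreted genes. Named here after their values were seen, they included the cell cycle inhibitor Cdkn1c of mature podocytes (0.26 ± 0.06), Foxc2 (0.21 ± 0.04), the collagen IV chain Col4a4 of the glomerular basement membrane (0.2 ± 0.05), alpha-actinin 4, Actn4 (0.13 ± 0.03), and the guidance receptor Robo2 (0.17 ± 0.04). Tcf21, a podocyte factor that binds E-boxes, was on the other side at -0.12 ± 0.05 (limma adjusted p = 0.173), as was Vegfa at -0.05 in each line. Several list genes, such as Actn4, Itgb1 and Dpp4, are also on in tubule or other cells. Anln, of the actin list, was lowest on the same array as the cell cycle gene Mki67 in every group. In control Anln read 7.73, 6.78 and 7.64, and Mki67 read 9.3, 8.29 and 9.36. Which cells gave the Anln signal was not tested. The count of 22 was 14 without PpargΔ/Δ 3, control 3 or AZIP 2 and 11 without FVB control 2, and lay between 11 and 19 with each of the 12 arrays left out. Over all genes the higher calls then lay between 839 and 1295, against 1255.

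**Figure D4:**
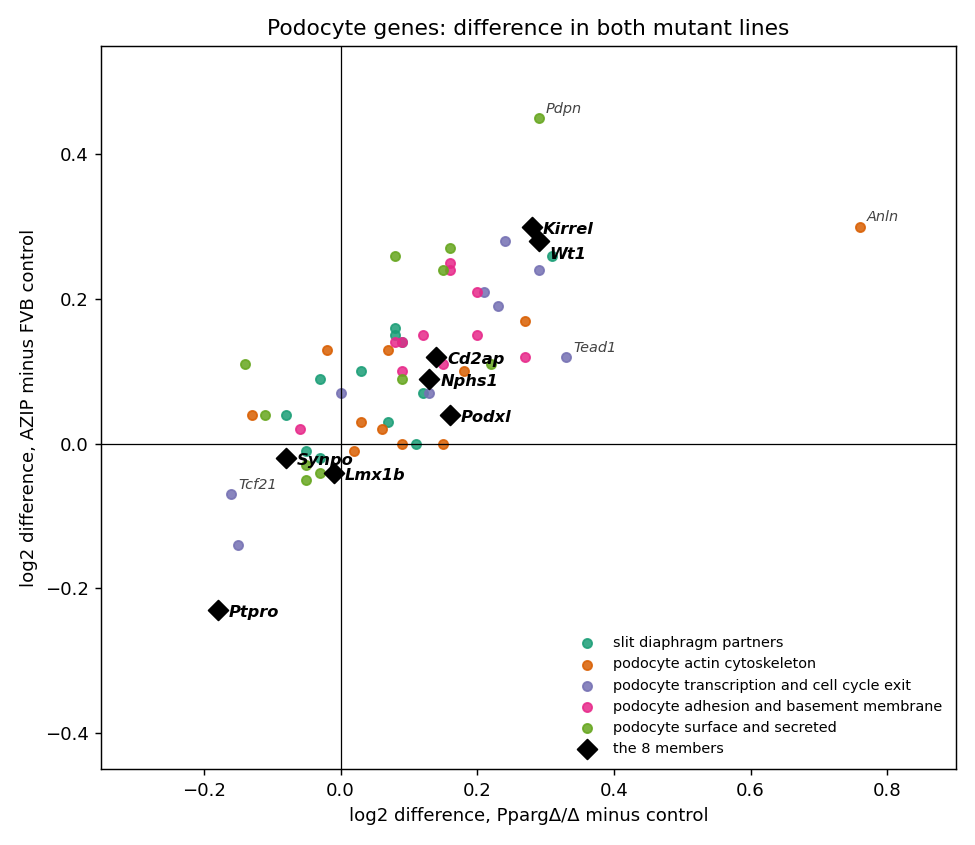
Log2 difference in PpargΔ/Δ (x axis) and in AZIP (y axis) for the 8 members (black diamonds) and 55 other podocyte genes, coloured by list. Most points lie in the upper right, with Kirrel and Wt1 near 0.3 on both axes and Ptpro in the lower left; Anln, at 0.76 and 0.3, did not pass in either line.

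Of the parietal, proximal tubule and cell cycle lists 1 of 6, 1 of 9 and 3 of 9 genes passed in PpargΔ/Δ, where 5.29% of all genes were called, and 1, 0 and 0 in AZIP, where 2.43% were. Among 6 genes of the parietal epithelium, which lines Bowman's capsule, Ncam1 was the 1 that rose, by 0.49 ± 0.06 in PpargΔ/Δ (limma adjusted p = 0.00207) and 0.35 ± 0.06 in AZIP (limma adjusted p = 0.0196). The summed signal of the 6, in log2, was 12.62 to 12.68 in PpargΔ/Δ against 12.53 to 12.56 in control, and 12.6 to 12.64 in AZIP against 12.53 to 12.57. Brighter genes weigh most in all such sums. Here these were Cldn2, Pax8 and Cldn1, with means of 11.07, 10.94 and 10.03, against 8.22 for Ncam1. Which cells gave their signal was not tested. Of this parietal list, Pax2 (-0.06 and -0.1) and Cldn2 (0 and -0.03) did not pass in either line. Of 9 proximal tubule genes 1, the urate transporter Slc22a12, fell in PpargΔ/Δ (-0.67 ± 0.14) and 0 changed in AZIP (6 lower at an unadjusted p under 0.05 by limma). Their summed signal was below control in both lines without overlap, at 15.43 to 15.5 against 15.53 to 15.64 and at 15.51 to 15.63 against 15.68 to 15.72. Of 9 cell cycle genes Mcm2 (0.57 ± 0.09), Mcm6 (0.71 ± 0.16) and Pcna (0.38 ± 0.09) rose in PpargΔ/Δ and 0 in AZIP (2 at an unadjusted p under 0.05 by limma). In PpargΔ/Δ their summed signal was 12.44 to 12.77 against 11.73 to 12.29 in control, without overlap. In AZIP it overlapped, at 11.84 to 12.45 against 11.64 to 12.11. The part of these cells in the podocyte values was not tested. Summed in the same way, the members read 12.84 to 12.85 in PpargΔ/Δ against 12.69 to 12.72 in control. In AZIP they read 12.84 to 12.9 against 12.77 to 12.8 in FVB control. Cd2ap and Podxl weigh most in this sum, with means of 11.67 and 10.87 against 8.86 for Nphs1, the next brightest. Neither passed the test in either line, so the sum mostly restates 2 uncalled genes. Sums of the slit diaphragm, actin, transcription and adhesion lists also lay above control in both lines without overlap. The surface list did so in AZIP, and in PpargΔ/Δ it met control at 13.81. How often sums over other genes do not overlap was not counted.

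The mesangial and endothelial lists gave no call in either line. By limma 0 of 5 mesangial and 0 of 10 endothelial genes passed in PpargΔ/Δ (2 lower, and 3 higher with 1 lower, at an unadjusted p under 0.05), and 0 of either in AZIP (1 higher each). Of the 10 endothelial genes 6 were above 0 in PpargΔ/Δ and 8 in AZIP, where 9338 and 10183 of all 19938 genes were. Picked after the values were seen, Ehd3 differed by 0.18 ± 0.08 in PpargΔ/Δ (limma adjusted p = 0.253). In AZIP it also differed by 0.18 ± 0.08, without overlap (limma adjusted p = 0.318). Summed endothelial signal overlapped in both lines, at 13.5 to 13.67 against 13.46 to 13.58 and at 13.54 to 13.7 against 13.55 to 13.61. Among 8 genes listed for nephron progenitors, Crym fell in PpargΔ/Δ (-0.34 ± 0.07) and 0 rose, and 0 passed in AZIP (2 higher at an unadjusted p under 0.05 by limma). Six2, Gdnf and Eya1 averaged 5.85, 6.13 and 6.17, above 29.2%, 33.2% and 33.8% of all probe sets. Sall1 and Itga9 averaged 9.59 and 9.18. Whether such progenitors were present at 3 weeks was not tested. The summed signal of the 8 genes, in which the brighter ones weigh most, was 11.14 to 11.22 in PpargΔ/Δ against 11.22 to 11.29 in control. In AZIP it was on the other side, at 11.22 to 11.27 against 11.17 to 11.23. In the average of both mutant effects, the contrast added after the values were seen, the endothelial receptor gene Flt1 was higher (0.15 ± 0.03, limma adjusted p = 0.0138), the 1 of 10 called there. By that contrast 2 of 6 parietal and 3 of 9 cell cycle genes were higher, 4 of 9 proximal tubule genes were lower, 1 of 8 progenitor and 1 of 8 fat cell genes were called in each direction, and 0 of 5 mesangial genes passed (1 lower at an unadjusted p under 0.05 by limma).

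The kidney label was checked against tubule markers, with mean signals over the 12 arrays of 10.62 to 13.18 for the 9 proximal tubule genes. The 8 fat cell genes ranged widely: the hormone genes Adipoq and Lep averaged 4.42 and 5.25, above 12.7% and 21.1% of all probe sets, while Fabp4, Pnpla2 and Lipe averaged 10.31, 10.51 and 8.82, above 89.3%, 90.9% and 72.5%. Fabp4 differed by -0.34 ± 0.09 in PpargΔ/Δ (limma adjusted p = 0.0573) and by 0.26 ± 0.09 in AZIP (limma adjusted p = 0.176). Lipe fell in PpargΔ/Δ (-0.59 ± 0.09) while 0 passed in AZIP (2 higher and 1 lower at an unadjusted p under 0.05 by limma). Pparg itself was at 0.11 ± 0.06 in PpargΔ/Δ (limma adjusted p = 0.339), at 0.22 ± 0.06 in AZIP without overlap (limma adjusted p = 0.0736), and higher in the average of both (0.16 ± 0.04, limma adjusted p = 0.0239); which part of the gene was deleted is not stated in the labels, so this does not check the genotype.

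The genes most like the mean of the 8 members, by Pearson r over the 12 arrays between deviations from group means and the members' mean standardised deviation, were Tm6sf2 (0.939), Il1rap (0.936), Antkmt (0.931), Eml6 (0.927), Defb19 (0.923), Mfsd4b1 (0.921), Enpep (0.917) and Card19 (0.916). None is a member of the slit diaphragm lists, and Enpep, an aminopeptidase of podocytes and proximal tubule, is on the surface list. Most like Wt1 were Mogat2 (0.963), Ndufv1 (0.948), Psma7 (0.944), Psmb6 (0.942) and Enpep (0.94), and most like Kirrel were Prkar1a (0.94), Ssx2ip (0.94), Bzw2 (0.939), Get1 (0.932) and Matn2 (0.928). The 2 called members had no gene in common in these lists. With 12 arrays searched over 19938 genes such values are a description, and 4 group means were removed from each gene first. Pairs of members ran from r = -0.82 to 0.85 in these deviations, so likeness to their mean is not likeness to each member.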

How the data were processed

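Whole-kidney RNA was hybridised to 12 Affymetrix arrays, and the deposited table holds log2 signals. The submitters' processing notes name RMA (background correction, quantile normalization and a summary per probe set) and Affymetrix Expression Console as what the authors used. Software version and genome build: not given in the sources used here. The number of arrays limits the precision.

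Of 35556 probe sets 21789 had 1 symbol, 1621 several and 12146 none in the platform table, and 21698 symbols were updated by Entrez number from RefSeq. The probe set with the highest mean was kept for 999 genes with several, leaving 19938 genes. Group means of all 12 arrays were fitted with limma 3.58.1 in R 4.3.3 (8 residual and 3.71 prior degrees of freedom), tested on simulated data, with Benjamini-Hochberg adjustment and a threshold of 0.05. P-values measure the spread between pools of mice.

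The members, the 12 lists (117 entries, 110 measured), contrasts, alternatives and naming rule were chosen with earlier results of these data known. The rule named the members, up to 4 genes of each list past the threshold in a mutant comparison, and the genes most like the members' mean or a called member in their deviations. The average contrast and the list counts under each alternative were added after the values were seen. Alternatives were other scaling, filters on low signal, probe set rules, variance models, array weights, a replicate block, and each array left out. Promoters came from RefSeq.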

Additional observations from a re-analysis of the deposited data

How the results depend on the processing

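Kirrel and Wt1 kept their direction in both mutant comparisons under every alternative run. In PpargΔ/Δ the count of members past the threshold was 1 to 2 with each array left out, against 2. In AZIP it was 1 to 2 with each array left out, 1 with all probe sets tested and 0 with only the groups compared. For FVB control against control it was 0 to 2 with each array left out and 2 with array weights, against 1. For the average of both effects it was 2 to 4 with each array left out, and for the difference of effects 0 throughout.

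Values near 0 changed sign. With each array left out the range was -0.06 to 0.04 for Lmx1b in PpargΔ/Δ, and -0.09 to 0.02 for Lmx1b and -0.06 to 0.03 for Synpo in AZIP. It was -0.01 to 0.03 for Cd2ap between the controls, where renewed quantile normalization gave 0, and -0.05 to 0 for Lmx1b in the average. In the difference of effects it was 0 to 0.07 for Nphs1, -0.04 to 0.07 for Wt1, -0.12 to 0.01 for Synpo, -0.05 to 0.01 for Kirrel, -0.05 to 0.15 for Ptpro, -0.01 to 0.06 for Cd2ap and -0.04 to 0.08 for Lmx1b. The mean of both Nphs1 probe sets gave -0.05 in AZIP, where the other set lay below its controls. The cause was not tested for the others.

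Over all genes, deviations of same-numbered mutant and control arrays correlated at 0.18, 0.18 and 0.01 in PpargΔ/Δ. In AZIP they correlated at -0.04, -0.1 and -0.01. Arrays of different numbers and of different lines were not compared, so these values cannot decide whether the numbers pair the arrays. With the replicate block 2 members passed in PpargΔ/Δ and 2 in AZIP, and the calls over all genes were 1102 and 694 in place of 1055 and 485. Over all genes, with equal medians 436 of 1130 calls in PpargΔ/Δ and 203 of 529 in AZIP were higher, against 532 of 1055 and 260 of 485, and in the average 960 of 2703 were, against 1255 of 2509. With only the groups compared the calls were 607 and 162. The count of higher podocyte list genes, 5 in PpargΔ/Δ and 1 in AZIP, was 2 and 0 with equal medians, with all probe sets and with only the groups compared, 3 and 3 after renewed quantile normalization, 10 and 8 without the dimmer 50% of genes, and 8 and 4 with a variance trend. Higher calls over all genes moved too. They were 719 and 396 of 9969 genes without the dimmer 50%, against 532 and 260 of 19938 as reported. Of 19938 genes they were 486 and 265 after renewed quantile normalization, 738 and 381 with a variance trend, and 349 and 84 with only the groups compared. With all probe sets they were 474 and 112 of 35556.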

Other observations

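Within groups, where genotype and strain are held fixed, the members did not move as one. Array number was not taken out of these deviations, and Cd2ap rose with array number in every group. Whether an effect shared by same-numbered arrays lies behind the correlations below was not tested. Over the 12 arrays' deviations from group means, Pearson r among the 28 pairs of members ran from -0.82 to 0.85. Nphs1 and Ptpro went together (r = 0.85, Spearman rho 0.71, exact permutation p within groups 0.027 and 0.044, r = 0.72 without the 2 arrays farthest out). Ptpro and Lmx1b went apart (r = -0.69, rho -0.67, exact permutation p 0.00772 and 0.0432, r = -0.62 without 2 arrays). Ptpro and Cd2ap had r = -0.82 with an exact permutation p of 0.0664 and rho -0.64 (0.098), and r = -0.56 without 2 arrays. By the exact two-sided test over 1296 within-group orders 4 of 28 pairs had a p under 0.05 for r, and 0 after Benjamini-Hochberg adjustment, the lowest adjusted values being 0.216 for r and 0.223 for rho. The 2 genes that rose in both mutants, Kirrel and Wt1, had r = 0.35 and rho 0.15 (exact permutation p 0.618 and 0.735), and r = -0.33 without the 2 arrays farthest out.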
